A study of Mus musculus with 16 samples.

Results

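The matrix metalloproteinases, the ADAMTS proteases, the ADAMTS-like proteins and the TIMP inhibitors were taken by gene symbol from the expression table of the developing mouse stomach, with no use of their measured values. They were the genes whose symbol was *Mmp*, *Timp*, *Adamts* or *Adamtsl* followed by its number, and they came to 51 of the 53711 genes of the table. Of these, 23 were *Mmp* genes, 19 *Adamts* genes, 5 *Adamtsl* genes and 4 *Timp* genes.

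RNA was sequenced from 16 libraries of sorted cells of embryos that carried both reporters of the strain labelled Sox2-EGFP; Gata4-td Tomato, in which EGFP and td Tomato were knocked in at *Sox2* and *Gata4*, and the mice were kept on a mixed background of C57BL/6 and 129×1/Sv. The epithelium was sorted with the surface marker EpCAM and by the level of both reporters. At E13.5 there were 2 libraries of Sox2midGata4mid cells, 3 of Gata4hi cells and 3 of Sox2hi cells. The E11.5 epithelium gave a single library each of Gata4hi and Sox2hi cells. Fibroblasts positive for PDGFRα came from the distal and the proximal stomach at 3 stages, E13.5 first, then E15.5 and last E17.5, with 1 library for each region and stage. How many embryos went into a library, and whether the replicates of a group came from separate litters, is not given in the sources used here, so the p-values rest on the variation among these libraries alone, which may be technical.

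MMPs are zinc proteases that cut collagens, other matrix proteins and many signalling proteins, and most of them are secreted or membrane-bound as inactive precursors. ADAMTS proteases are secreted relatives that trim procollagens, cut large proteoglycans such as versican or act on the fibrillin network, and ADAMTS-like proteins share their matrix-binding domains but have no protease domain. TIMPs bind the active sites of these enzymes. In a developing gut the mesenchyme lays down most of the interstitial matrix, and both the epithelium and the mesenchyme can release the enzymes that remodel it at the basement membrane.

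The values are FPKM, fragments scaled by transcript length and by the mapped fragments of the library, so levels of different genes can be compared per length. The sum of FPKM over all genes lay between 436296 and 656588 in each library. Relative depth, read from the spacing of low values and set to 1 in E13.5 Sox2hi replicate 1, was 0.72 to 1.07 in the E13.5 epithelium, 0.465 and 0.761 at E11.5, and 0.392 to 0.788 in fibroblasts. The sorted cells fitted their labels by their epithelial and fibroblast markers. The summed level of 5 epithelial markers was 775 to 1262 FPKM in the E13.5 epithelium and 1.49 to 9.05 FPKM in fibroblasts, and that of 8 fibroblast markers was 5.49 to 22.7 FPKM in the E13.5 epithelium and 4484 to 32231 FPKM in fibroblasts. The fibroblast libraries also held smooth muscle transcripts. The 5 smooth muscle markers summed to 461 to 1473 FPKM in them and to 3.78 to 12.5 FPKM in the E13.5 epithelium.

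Both compartments transcribed these genes, and nearly all members that reached 1 FPKM in the epithelium also reached it in fibroblasts. Of the 51 members, 37 reached 1 FPKM in at least 1 library. There were 36 that reached it in a fibroblast library and 21 in an epithelial library, 16 reached it in fibroblasts alone, and *Adamts18* alone reached it in the epithelium and not in fibroblasts. The share of all genes with either pattern was not computed, so these counts do not set the members apart from other genes. The stages also differ, since fibroblasts were sampled from E13.5 to E17.5 and the epithelium at E11.5 and E13.5. *Mmp1a*, *Mmp1b*, *Mmp12*, *Mmp20* and *Mmp27* were listed at 0 in all 16 libraries.

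In the E13.5 epithelium the highest member was *Mmp11*, which encodes stromelysin-3, a secreted MMP that furin activates inside the cell. It averaged 79.6 FPKM over the 8 libraries and was followed by *Mmp14*, the membrane-bound MT1-MMP, at 36.6 FPKM. *Timp2*, an inhibitor that also helps MMP14 to activate MMP2, came next at 18.8 FPKM, ahead of *Mmp15*, which encodes MT2-MMP, at 15.3 FPKM. *Adamts1*, *Timp3*, *Adamts10* and *Adamts7* completed the highest 8, at 4.18 to 6.89 FPKM.

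Over the 6 fibroblast libraries the highest member was *Mmp2*, gelatinase A, at a mean of 301.7 FPKM. *Mmp14* averaged 146 FPKM, *Timp2* 95.8 FPKM, *Adamts1* 83.6 FPKM and *Mmp11* 65.2 FPKM. *Timp3*, *Adamts2* and *Timp1* followed at 38.5, 35.4 and 25.3 FPKM. The gelatinase-activating trio of *Mmp2*, *Mmp14* and *Timp2* thus held 45.6% to 55.5% of all member FPKM in a fibroblast library and 23.1% to 40.3% in an epithelial library, whereas *Mmp11* held 2.95% to 13.3% in a fibroblast library and 27.4% to 50.4% in an epithelial library.

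**Figure D1:**
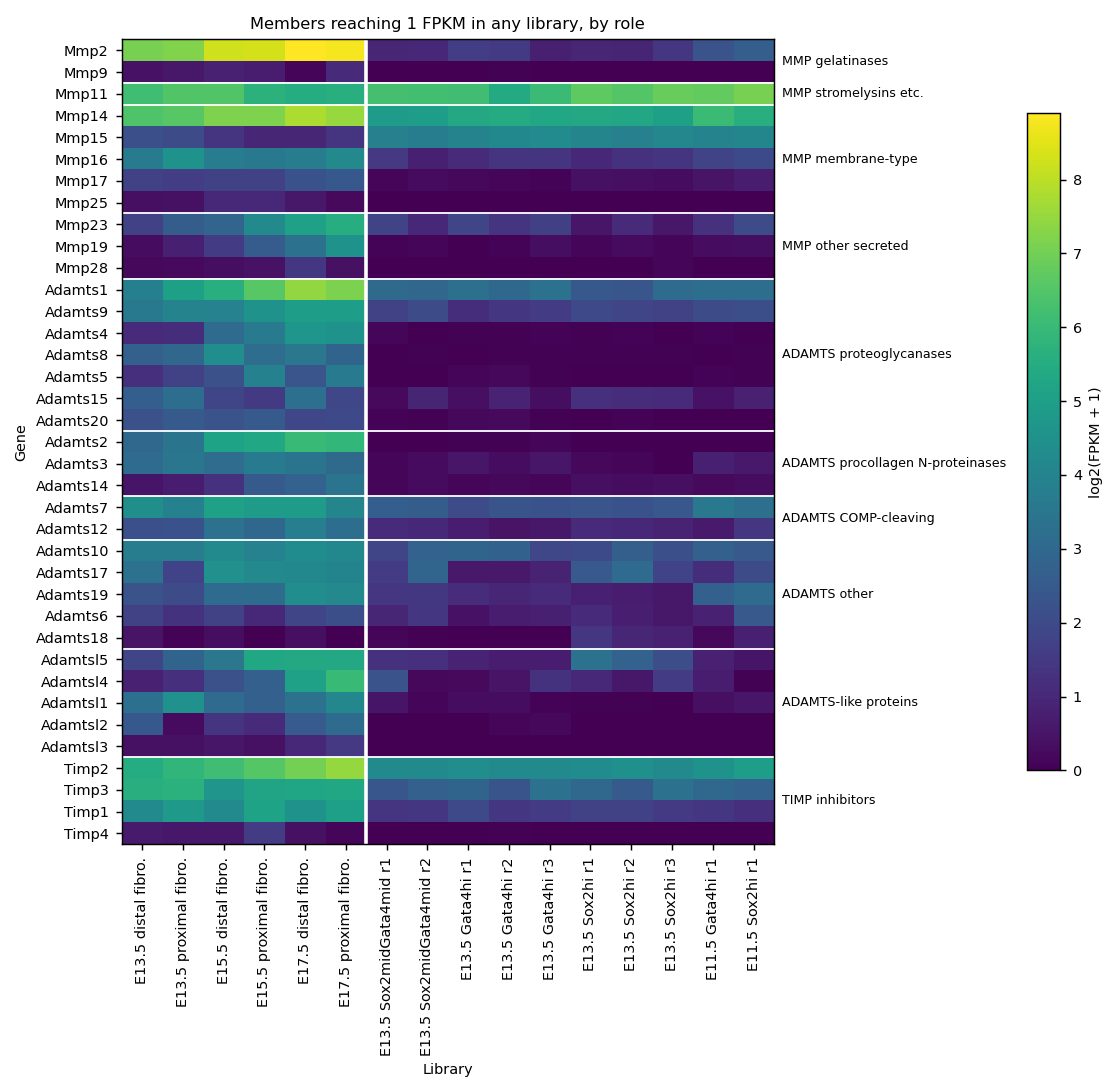
Level of the 37 members that reached 1 FPKM, as log2(FPKM + 1) on a colour scale, with 1 row a gene grouped by role and 1 column a library, fibroblasts on the left and epithelium on the right. The *Mmp2* row is bright in the 6 fibroblast columns and dark in the 10 epithelial ones, the *Mmp15* row shows the opposite, and *Mmp11* and *Mmp14* are bright throughout.

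Summed over all members, the level was 545 and 657 FPKM in distal and proximal fibroblasts at E13.5, 936 and 1055 FPKM at E15.5, and 1518 and 1507 FPKM at E17.5. It was 157 to 226 FPKM (median 183) in the E13.5 epithelium, and 266 and 293 FPKM in Gata4hi and Sox2hi cells of E11.5. As a share of all FPKM this was 0.0882% to 0.309% in fibroblasts and 0.0290% to 0.0540% in epithelial libraries, with no overlap between the compartments. The summed TIMP level was 0.201 to 0.368 of the summed MMP level in fibroblasts and 0.160 to 0.231 of it in the epithelium. Over all stages these ranges overlapped, through the distal E15.5 library at 0.201. At E13.5 alone it was 0.354 and 0.368 in distal and proximal fibroblasts and 0.174 to 0.231 in the epithelium, with no overlap. Because the cells were measured in bulk, fewer cells that express a gene and less RNA per cell cannot be told apart for any of these values.

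**Figure D2:**
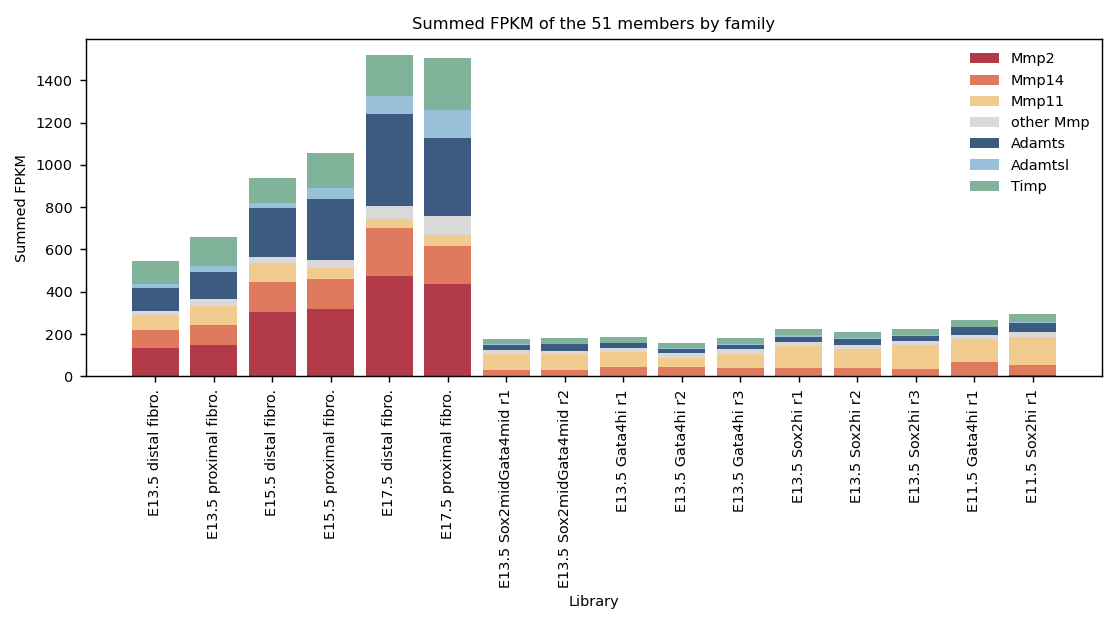
Summed FPKM of the members in each library, stacked by *Mmp2*, *Mmp14*, *Mmp11*, the other *Mmp* genes, *Adamts*, *Adamtsl* and *Timp* genes, with fibroblasts on the left. The fibroblast bars reach 545 to 1518 FPKM and grow with stage mainly through *Mmp2* and the *Adamts* genes. *Mmp14*, the *Adamtsl* genes and the *Timp* genes add smaller parts to this growth. The epithelial bars reach 157 to 293 FPKM and consist largely of *Mmp11* and *Mmp14*.

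Genes of the interstitial collagenases and of most stromelysins were listed at or near 0. A group of 10 *Mmp* genes lies together on chromosome 9 between positions 7272514 and 7699585 of mm10. It holds the collagenases *Mmp1a*, *Mmp1b*, *Mmp8* and *Mmp13*, the stromelysins *Mmp3* and *Mmp10*, the matrilysin *Mmp7*, the macrophage elastase *Mmp12*, the enamel protease *Mmp20*, and *Mmp27*. Of their 160 values 151 were listed at 0, and the highest was 0.135 FPKM for *Mmp10*, whereas *Mmp11*, the stromelysin that lies elsewhere on chromosome 10, was the highest member of the epithelium. The promoters of the group also differ in sequence from those of the members with higher levels. The 100 bases before the start of transcription are shown for 3 genes of this group and 6 genes with higher levels, all from RefSeq on GRCm38.p6 and read 5′ to 3′ on the gene's own strand, with capitals for 4 short motifs described after them.
Mmp13: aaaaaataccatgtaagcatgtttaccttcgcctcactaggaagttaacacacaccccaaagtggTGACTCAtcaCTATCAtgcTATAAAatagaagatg
Mmp3: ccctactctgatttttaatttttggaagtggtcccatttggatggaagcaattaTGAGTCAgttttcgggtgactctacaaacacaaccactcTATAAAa
Mmp10: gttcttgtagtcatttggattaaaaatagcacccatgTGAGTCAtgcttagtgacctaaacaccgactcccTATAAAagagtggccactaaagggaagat
Mmp11: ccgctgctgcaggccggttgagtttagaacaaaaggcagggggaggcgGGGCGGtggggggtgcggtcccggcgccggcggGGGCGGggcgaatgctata
Mmp14: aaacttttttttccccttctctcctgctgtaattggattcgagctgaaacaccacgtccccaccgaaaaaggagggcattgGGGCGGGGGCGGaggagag
Timp2: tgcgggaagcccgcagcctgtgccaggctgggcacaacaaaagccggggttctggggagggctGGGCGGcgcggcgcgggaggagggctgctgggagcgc
Adamts1: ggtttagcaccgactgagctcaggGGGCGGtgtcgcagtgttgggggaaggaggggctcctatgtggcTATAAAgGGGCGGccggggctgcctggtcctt
Adamtsl5: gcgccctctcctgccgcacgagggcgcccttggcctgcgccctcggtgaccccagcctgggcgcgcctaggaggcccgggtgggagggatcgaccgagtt
Adamts17: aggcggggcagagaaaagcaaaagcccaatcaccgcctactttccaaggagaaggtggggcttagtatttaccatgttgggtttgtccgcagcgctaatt

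The genes of the chromosome 9 group shown were *Mmp13* (chr9:7272414-7272513, plus strand), *Mmp3* (chr9:7445722-7445821, plus strand) and *Mmp10* (chr9:7502242-7502341, plus strand). The genes with higher levels were *Mmp11* (chr10:75932503-75932602, minus strand), *Mmp14* (chr14:54431498-54431597, plus strand), *Timp2* (chr11:118355412-118355511, minus strand), *Adamts1* (chr16:85803114-85803213, minus strand), *Adamtsl5* (chr10:80348449-80348548, minus strand) and *Adamts17* (chr7:66839635-66839734, plus strand). The last 2 are shown because they differed between the epithelial populations. The motifs were searched on both strands in the 250 bases before each start and were the AP-1 motif, spelled TGAGTCA or TGACTCA, the GATA motif, spelled AGATAA or AGATAG and likewise TGATAA or TGATAG, the GC box GGGCGG and the TATA box TATAAA. A capital run that does not spell one of these is its reverse complement, such as CTATCA in *Mmp13*.

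RefSeq windows were at hand for 36 of the 51 members, as 39 windows. The AP-1 motif was in 7 of the 39 windows (17.9%), against 4.46% of 32851 windows of all genes, and all 7 belonged to the chromosome 9 group, where *Mmp8*, *Mmp20* and *Mmp27* had none. The TATA box was in 10 windows (25.6%), against 12.4% of all windows, and 7 of these were in the same group. The GC box was in 20 windows (51.3%), against 32.7% of all windows, and in none of the 12 windows of the chromosome 9 group. Among the 23 members with a window that reached 1 FPKM, 19 had a GC box and none had an AP-1 motif. *Mmp11* had GC boxes 52 and 19 bases before its start, *Mmp14* had them at 19 and 13 bases, and *Adamts17* had none of the 4 motifs. The GATA motif was in 7 windows (17.9%), against 26.5% of all windows, with 4 of the 7 among the 12 windows of the chromosome 9 group, and among genes of the epithelium it was found in that of *Mmp15*. These matches describe letters in a window and do not show that a factor binds there.

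At E13.5 the fibroblasts were compared with the epithelium to ask which compartment transcribes which enzyme. *Mmp2* stood furthest apart, and most ADAMTS proteases and 3 TIMPs were higher in fibroblasts, whereas *Mmp15* was higher in the epithelium and the fibroblast values of *Mmp11* lay inside its epithelial range. Of 24 members that averaged at least 1 FPKM in these 10 libraries, 19 were higher and 1 was lower in fibroblasts at an adjusted p under 0.05 in limma. Of all 13502 genes tested, 53.8% were called, 30.5% higher and 23.3% lower. The median log2 difference was 1.44 for the 24 members, against 0.08 for all genes. For 7 of the 24, namely *Adamts2*, *Adamts3*, *Adamts6*, *Adamts8*, *Adamts12*, *Adamts15* and *Adamtsl1*, the epithelial mean was under 1 FPKM, so they were tested only because of their fibroblast level and had to be higher there. Of the other 17 members 12 were higher and 1 lower, with a median of 1.37, against 28% higher, 24.3% lower and a median of 0.05 for the 12919 genes with an epithelial mean of at least 1 FPKM. Of all calls 56.7% were higher on FPKM, 29.7% with FPKM rescaled to 1 common sum (TPM) and 46.5% after quantile normalization, and the member counts were 17 higher and 1 lower on TPM and 19 and 1 after quantile normalization. With only replicate 3 of Gata4hi and Sox2hi cells as the epithelium, the libraries labelled in the style of the fibroblast ones, 7 members were called.

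*Mmp2* had 132 and 147 FPKM in distal and proximal fibroblasts, against 0.737 to 2.08 (median 0.978) FPKM in the 8 epithelial libraries. The lowest fibroblast library was far above the highest epithelial one, and the log2 difference was 6.01 (SE 0.22, adjusted p = 9.38e-08). *Mmp14* had 85.8 and 95.4 FPKM in the fibroblasts and 29.2 to 43.0 (median 38.8) FPKM in the epithelium. These groups did not overlap either, although the difference was smaller at 1.32 (SE 0.10, adjusted p = 5.57e-06). *Mmp16*, which encodes MT3-MMP, had 12.1 and 22.1 FPKM in fibroblasts and 0.728 to 1.75 (median 1.47) FPKM in the epithelium, a difference of 2.92 (SE 0.25, adjusted p = 1.53e-05).

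*Mmp15* ran the other way. It had 3.55 and 3.09 FPKM in distal and proximal fibroblasts, against 12.6 to 18.8 (median 15.1) FPKM in the epithelium. The groups did not overlap and the log2 difference was -1.89 (SE 0.12, adjusted p = 1.82e-06). It was the only one of the 3 tested membrane-type enzymes, and of all 24 members, that was lower in fibroblasts. *Mmp11* had 70.1 and 87.6 FPKM in fibroblasts and 42.9 to 114 (median 75.1) FPKM in the epithelium. Both fibroblast libraries fell inside the epithelial range, and the log2 difference of 0.04 (SE 0.18, adjusted p = 0.878) did not pass the test. A neighbour on the opposite strand, *Chchd10*, shares 5.58% of the exonic bases of *Mmp11* and was itself at 35.2 to 57.5 FPKM in the epithelium and at most 1.41 FPKM in fibroblasts. Whether its reads were kept apart depends on the strand setting, which is not given in the sources used here.

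All 3 tested TIMPs were higher in fibroblasts. *Timp1* had 17.98 and 26.8 FPKM there and 1.51 to 2.89 (median 1.93) FPKM in the epithelium, a difference of 2.96 (SE 0.19, adjusted p = 2.4e-06). *Timp3*, a TIMP that is held in the matrix and also inhibits ADAMTS proteases, had 46.6 and 49.9 FPKM in fibroblasts and 3.95 to 9.30 (median 5.97) FPKM in the epithelium, with a log2 difference of 2.84 (SE 0.27, adjusted p = 3.23e-05). *Timp2* had 44.6 and 56.9 FPKM in fibroblasts and 17.9 to 21.2 (median 18.2) FPKM in the epithelium, a difference of 1.39 (SE 0.10, adjusted p = 6.36e-06). In none of the 3 did the compartments overlap, and *Timp2* was the only TIMP above 10 FPKM in every epithelial library.

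The proteases that trim fibrillar procollagens were transcribed in fibroblasts. *Adamts2* had 7.10 and 9.74 FPKM in them, against at most 0.0782 FPKM in any E13.5 epithelial library. *Adamts3*, which in addition processes VEGF-C, had 7.57 and 10.2 FPKM in fibroblasts and at most 0.462 FPKM in the epithelium. Their log2 differences were 3.19 and 3.04, with the limit that both entered the test through their fibroblast level, while *Adamts14*, the last of the 3 genes, was below the minimum level at this stage.

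Of the 4 tested proteoglycanases, each was higher in fibroblasts, though *Adamts8* and *Adamts15* were tested only because of that level, from *Adamts8* with 2.79 (SE 0.18, adjusted p = 2.54e-06) through *Adamts15* and *Adamts9*, with log2 differences of 2.2 and 2.08, to *Adamts1*. *Adamts1* had 13.3 and 32.4 FPKM in fibroblasts and 4.21 to 8.94 (median 7.20) FPKM in the epithelium, a difference of 1.5 (SE 0.30, adjusted p = 0.00249). The distal library was closer to the epithelium than the proximal one, and without the proximal library the difference was 0.89. *Adamts7* and *Adamts12*, whose proteins cut the cartilage oligomeric matrix protein, were higher by 1.77 and 1.35.

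Among the other *Adamts* genes, *Adamts10*, a gene of the human microfibril disorder Weill-Marchesani syndrome, was higher by 1.37, though at an adjusted p of 0.0506 without the proximal library. *Adamts19* was higher by 1.12 and *Adamts6* by 0.66. *Adamts17* was not called, with 9.05 and 2.47 FPKM in fibroblasts and 0.510 to 7.61 (median 2.19) FPKM in the epithelium. The ADAMTS-like gene *Adamtsl1* was higher by 3.67, with 8.53 and 21.4 FPKM in fibroblasts against at most 0.425 FPKM. *Adamtsl5* and *Adamtsl4* were not called, with log2 differences of 0.79 and 0.05. *Mmp23* was called, with 0.93 (SE 0.30, adjusted p = 0.0276), but at 2.34 and 5.20 FPKM in fibroblasts it overlapped the epithelial range of 0.450 to 2.66 (median 1.34) FPKM, and without the proximal library the difference was 0.48 at an adjusted p of 0.302, the highest of its alternatives. *Adamts6* likewise had an adjusted p of 0.204, again the highest, when the distal library was left out.

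**Figure D3:**
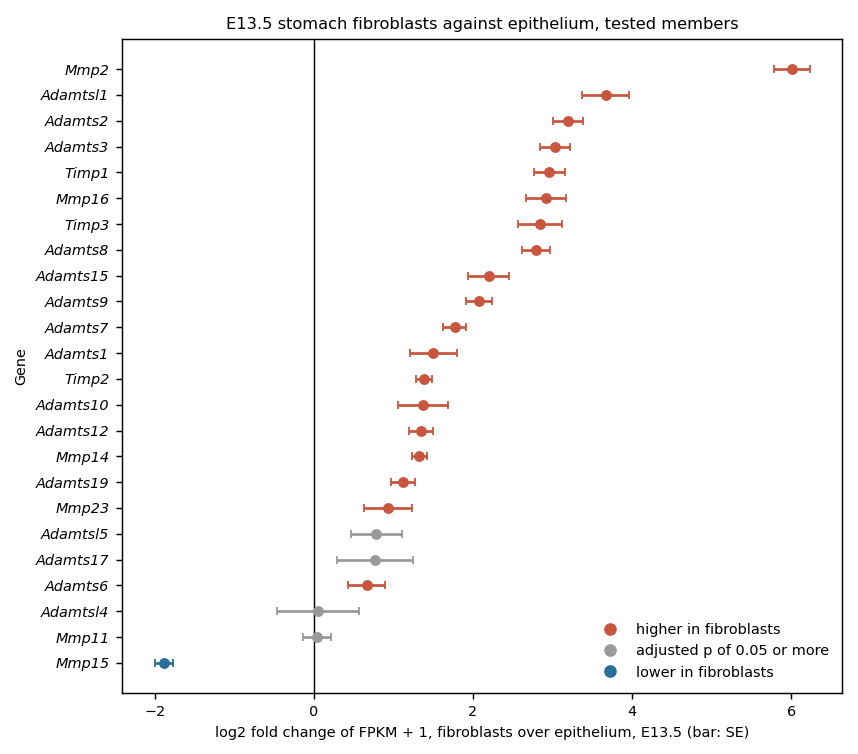
Log2 difference in log2(FPKM + 1) of E13.5 fibroblasts over E13.5 epithelium for the 24 tested members, ordered by that difference, with the standard error as bars. Points are coloured by whether they were called higher, called lower or not called at an adjusted p under 0.05 in limma. *Mmp2* lies at 6.01, *Mmp15* is the only point called below 0 at -1.89, and *Mmp11* lies at 0.04.

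Within the E13.5 epithelium the sorted populations were compared to ask whether the proteases differ between Gata4hi cells, the Sox2hi cells and the cells with middling levels of both reporters. *Adamtsl5*, *Adamts17* and *Mmp11* were lower in Gata4hi than in Sox2hi cells, and no member was called higher, although *Mmp23* and *Adamts1* were under some alternatives. These were 3 of 17 tested members, and of all 13127 genes 21.6% were called in limma, 14.9% higher and 6.7% lower. Without Sox2hi replicate 1 only *Adamtsl5* passed, and with replicates 1 and 2 alone, which share a style of label, *Adamtsl5*, *Adamts17* and *Adamts1* did. Higher genes made up 69.0% of all calls on FPKM, 47.6% on TPM and 52.4% after quantile normalization, while the member counts were the same on each scale. The median log2 difference was -0.02 for the members and 0.08 for all genes.

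*Adamtsl5*, an ADAMTS-like protein with no protease domain, had 0.831, 0.598 and 0.605 FPKM in the 3 Gata4hi libraries, against 9.11, 5.91 and 3.34 FPKM in the 3 Sox2hi libraries. Every Gata4hi library was below every Sox2hi library, and the log2 difference was -2.0 (SE 0.29, adjusted p = 0.00229). It was called under each of its 16 alternatives. The Gata4hi and Sox2midGata4mid libraries of *Adamtsl5* together averaged less than 1 FPKM, however. It was tested only because of its Sox2hi level and had to be lower in Gata4hi cells. In Sox2midGata4mid cells *Adamtsl5* had 1.40 and 1.27 FPKM, also below every Sox2hi library, with -1.52 (SE 0.33, adjusted p = 0.0391) against Sox2hi cells, a call that was lost under 9 of its 16 alternatives, among them the omission of any single library except Sox2hi replicate 3. It was the only 1 of 17 members called in that comparison, in which 5.55% of all genes were called, 2.54% higher and 3.01% lower, and the median was -0.10 for members and -0.04 for all genes. Of all calls 45.7% were higher on FPKM and 67.3% on TPM.

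*Adamts17*, a gene mutated in a human Weill-Marchesani-like syndrome, had 0.510, 0.536 and 0.801 FPKM in Gata4hi cells, against 4.66, 7.61 and 2.47 FPKM in Sox2hi cells. The groups did not overlap, and the difference was -1.78 (SE 0.42, adjusted p = 0.0203). The Gata4hi mean of 0.616 FPKM was under the minimum level, which the Sox2hi and Sox2midGata4mid libraries carried the gene past. Leaving out Gata4hi replicate 1, 2 or 3 or Sox2hi replicate 1 or 2 raised the adjusted p above the threshold, to 0.0699 at most. Its 2 Sox2midGata4mid values of 1.90 and 6.53 FPKM were both above every Gata4hi library, but the difference of 1.54 (SE 0.47, adjusted p = 0.0707) was not called.

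*Mmp11*, the highest of the members in this epithelium, averaged 59.6 ± 14.7 FPKM in Gata4hi cells and 103 ± 11.2 FPKM in Sox2hi cells (SD, n = 3 each). The libraries had 70.7, 42.9 and 65.2 FPKM in Gata4hi cells, against 103, 91.2 and 114 FPKM in Sox2hi cells. The groups did not overlap and the difference was -0.80 (SE 0.18, adjusted p = 0.0168), which was not called without Sox2hi replicate 1 or without Sox2hi replicate 3 (adjusted p up to 0.0607). Sox2midGata4mid cells had 77.2 and 72.9 FPKM, above every Gata4hi and below every Sox2hi library, and neither difference was called. *Chchd10*, the overlapping neighbour, was at 46.5 to 57.5 FPKM in Gata4hi and 35.2 to 49.2 FPKM in Sox2hi cells, ranges that overlap.

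*Mmp14* was the member lower in Sox2midGata4mid than in Gata4hi cells. It had 29.2 and 30.7 FPKM in Sox2midGata4mid cells, against 40.2, 43.0 and 38.2 FPKM in Gata4hi cells. The groups did not overlap and the difference was -0.42 (SE 0.11, adjusted p = 0.0469). The call was lost under 11 of 17 alternatives, among them the omission of any single library except Sox2hi replicate 3, and on TPM the difference was -0.14 at an adjusted p of 0.519, where its alternatives gave 0.0228 to 0.519. It was 1 of 17 members called in this comparison, in which 13.6% of all genes were called, 2.59% higher and 11% lower, and the median was -0.12 for members and -0.13 for all genes. Of all calls 19.1% were higher on FPKM, 67.9% on TPM and 48.4% after quantile normalization. On TPM the member median was 0.06 and *Adamts7* was the 1 member called, higher by 0.75 at an adjusted p of 0.0233.

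The other abundant members were not called between the populations. *Mmp15* averaged 13.1 ± 0.721, 16.8 ± 2.01 and 15.2 ± 1.52 FPKM in Sox2midGata4mid, Gata4hi and Sox2hi cells (SD, n = 2, 3 and 3). *Timp2* averaged 18.02 ± 0.170, 18.6 ± 0.771 and 19.4 ± 1.61 FPKM in the same order, and its log2 difference of Gata4hi over Sox2hi was -0.06 with a standard error of 0.09. *Mmp23*, which encodes an MMP anchored in the membrane as a precursor, had 2.66, 1.62 and 2.22 FPKM in Gata4hi and 0.450, 1.07 and 0.475 FPKM in Sox2hi cells. Its groups did not overlap, but the difference of 0.93 (SE 0.28, adjusted p = 0.0508) just missed the threshold. *Mmp23* was called higher with a pseudocount of 0.1, without a variance trend, without either Sox2midGata4mid library and with only the 2 groups compared, at adjusted p of 0.0272 to 0.0402. *Adamts1* had 8.75, 7.07 and 8.94 FPKM in Gata4hi cells and 4.45, 4.21 and 7.64 FPKM in Sox2hi cells, which overlap, and a difference of 0.56 (SE 0.20, adjusted p = 0.0952). With the replicate number as a block the adjusted p of *Adamts1* was 0.0456, and without Sox2hi replicate 3 it was 0.00985. The rare *Adamts18* was listed at 0 in all 3 Gata4hi libraries, at 0.0809 and 0.0457 FPKM in Sox2midGata4mid cells and at 1.63, 0.954 and 0.755 FPKM in Sox2hi cells, and was below the minimum level for the test. With no minimum, *Adamts18* was lower than in Sox2hi cells by limma, with -1.06 (adjusted p = 0.00538) in Gata4hi and -0.97 (adjusted p = 0.0402) in Sox2midGata4mid cells.

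Markers of other cell types were low in all of these libraries. The 4 mesothelial markers summed to 7.23 to 10.3 FPKM in Gata4hi and 0.865 to 1.13 FPKM in Sox2hi cells. Most of this was *Msln*, with 6.93, 7.93 and 9.86 FPKM in Gata4hi and 0.857, 0.721 and 0.783 FPKM in Sox2hi cells. The other mesothelial markers, *Wt1*, *Upk3b* and *Lrrn4*, were at most 0.241 FPKM in both groups. The 5 smooth muscle markers summed to 6.92 to 12.5 and 3.78 to 7.71 FPKM in the same groups. The part of these markers in the differences was not tested.

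**Figure D4:**
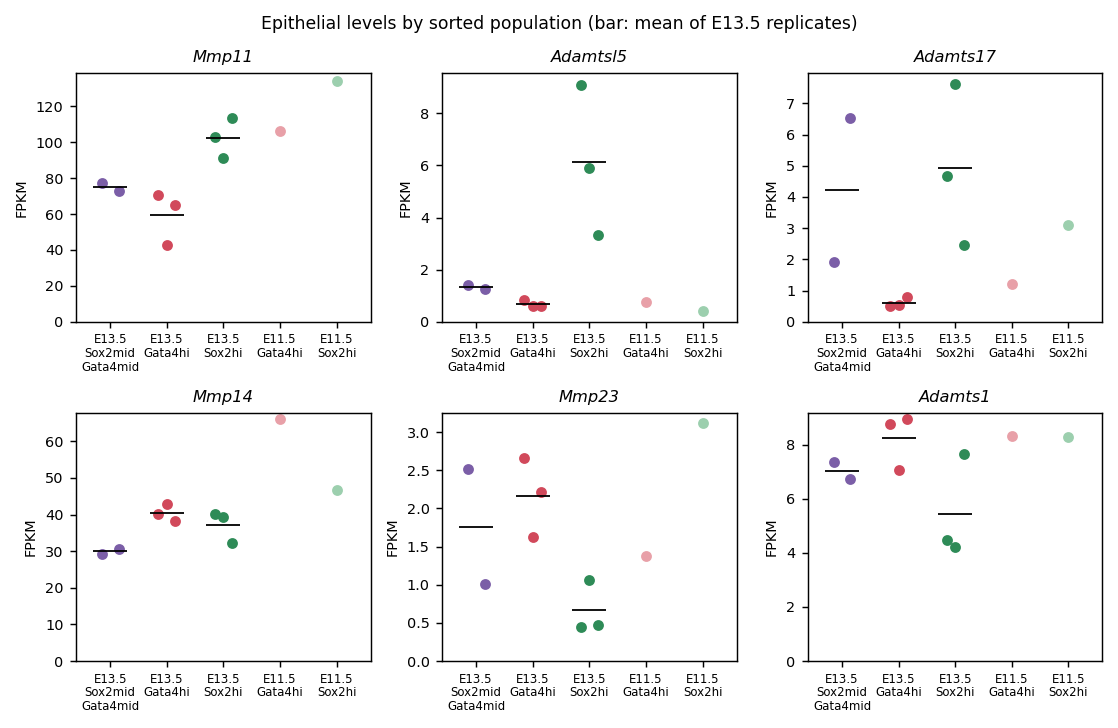
FPKM of *Mmp11*, *Adamtsl5*, *Adamts17*, *Mmp14*, *Mmp23* and *Adamts1* in each epithelial library, by population, for E13.5 Sox2midGata4mid, Gata4hi and Sox2hi cells and for E11.5 Gata4hi and Sox2hi cells, with a bar at the mean of E13.5 replicates. The 3 Gata4hi points of *Adamtsl5* (0.598 to 0.831 FPKM) lie below the 3 Sox2hi points (3.34 to 9.11 FPKM), while the E11.5 points are both below 1 FPKM.

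At E11.5 the populations had 1 library each, so their difference has no replicate check. Of 17 members that averaged at least 1 FPKM, only *Adamts6* differed by 2-fold on FPKM + 1, with 0.767 FPKM in Gata4hi and 4.5998 FPKM in Sox2hi cells. Of all genes 4.9% were higher and 3.86% lower by that much. *Adamtsl5*, which differed most at E13.5, had 0.773 FPKM in Gata4hi and 0.419 FPKM in Sox2hi cells of E11.5. *Mmp11* had 106 and 134 FPKM in the same libraries. No member's difference between populations was itself shown to differ between the stages. For *Adamtsl5* this change in the log2 difference was -2.33, with an adjusted p of 0.193 in limma, and for *Mmp23* it was 1.73, with an adjusted p of 0.166, where 1.26% of all genes passed.

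The stages were compared over both populations to ask which members change as the epithelium develops. *Adamts19*, *Adamts7* and *Mmp2* were lower at E13.5 and no member was called higher, that is 3 of 17 tested, where 5.69% of all genes were called in limma, 2.02% higher and 3.67% lower. Of all calls 35.5% were higher on FPKM, 65.0% on TPM and 53.1% after quantile normalization. The median log2 difference was -0.46 for members and -0.08 for all genes. *Adamts19* had 1.162, 0.951 and 1.1597 FPKM in Gata4hi and 0.729, 0.637 and 0.503 FPKM in Sox2hi cells of E13.5, against 5.69 and 7.65 FPKM in those of E11.5. All E13.5 libraries were far below both E11.5 libraries, with a difference of -2.05 (SE 0.22, adjusted p = 0.00678). The E13.5 libraries of *Adamts19* averaged less than 1 FPKM, however. It was tested only because of its E11.5 level and had to be lower at E13.5. *Adamts7* had 3.17, 4.01 and 3.68 FPKM in Gata4hi and 4.12, 3.67 and 4.28 FPKM in Sox2hi cells of E13.5, against 10.9 and 8.78 FPKM at E11.5. The stages did not overlap and the difference was -1.17 (SE 0.14, adjusted p = 0.00925).

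*Mmp2* had 2.08, 1.82 and 0.737 FPKM in Gata4hi and 0.923, 0.906 and 1.65 FPKM in Sox2hi cells of E13.5, against 3.80 and 5.40 FPKM at E11.5. Its difference of -1.27 (SE 0.29, adjusted p = 0.0470) was lost under 13 of 14 alternatives, among them the omission of any single library. *Mmp14* and *Timp2*, at 66.0 and 46.7 FPKM and at 22.5 and 30.5 FPKM in E11.5 Gata4hi and Sox2hi cells, lay just outside the threshold, with log2 differences of -0.51 and -0.45 and adjusted p of 0.0528 and 0.0586. *Mmp15* differed by 0.05. Red cell markers, 5 globin and surface genes, summed to 19.0 and 5.73 FPKM in the E11.5 Gata4hi and Sox2hi libraries and to at most 0.601 FPKM at E13.5, and their part in the result was not tested. With only replicate 3 of E13.5, whose labels are written in the style of the E11.5 labels, no member passed, and without E11.5 Gata4hi the number was 5. Among these, 1 went the other way, since *Adamtsl5* was then higher at E13.5 by 2.24 at an adjusted p of 0.0385, against a difference of 1.08 at an adjusted p of 0.243 with all libraries.

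In fibroblasts more members were higher than lower at the later stage, whereas more genes as a whole were lower. Between E13.5 and E17.5, 17 of 31 tested members were higher at E17.5 and none was lower, where 37.1% of all 12900 genes were called in limma, 9.96% higher and 27.1% lower. The median log2 difference was 1.15 for members and -0.31 for all genes. In 20 members (64.5%) both E17.5 libraries were above both E13.5 libraries, against 20.3% of all genes, and 16 members (51.6%) had higher values at each later stage in both regions, against 8.61% of all genes. *Adamts14* and *Mmp19* averaged less than 1 FPKM at E13.5 and were tested because of their later level. Of the other 29 members 15 were higher and none lower, with a median of 1.15, against 8.93% higher, 28.4% lower and a median of -0.35 for the 12318 genes that averaged 1 FPKM or more at E13.5. With 1 library for each region and stage the fit has 2 residual degrees of freedom, its spread is the departure from an additive effect of region and stage, and no member passed without the distal or the proximal E13.5 library or without the proximal E17.5 library. Without the distal or the proximal E15.5 library 11 members passed, and without the distal E17.5 library 10. Higher genes made up 26.9% of all calls on FPKM, 56.4% on TPM and 45.5% after quantile normalization, with 19 members higher on TPM, 17 after quantile normalization and none lower on either.

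Among the MMPs, *Mmp2* had 132, 303 and 476 FPKM in distal fibroblasts from E13.5 through E15.5 to E17.5, and 147, 317 and 435 FPKM in proximal fibroblasts. It rose at every step in both regions, with a log2 difference of E17.5 over E13.5 of 1.70 (SE 0.11, adjusted p = 0.00364). *Mmp14* had 85.8, 145 and 224 FPKM in distal and 95.4, 143 and 183 FPKM in proximal fibroblasts at the same stages, and rose by 1.15 (SE 0.14, adjusted p = 0.00761). *Mmp23* had 2.34, 6.56 and 32.8 FPKM in distal and 5.20, 17.52 and 45.2 FPKM in proximal fibroblasts. It too rose at every step, by 3.12 (SE 0.23, adjusted p = 0.00442). *Mmp19*, a secreted enzyme of broad matrix specificity, had 0.214, 1.90 and 8.87 FPKM in distal and 0.732, 5.01 and 22.1 FPKM in proximal fibroblasts, and rose by 3.38. Of its exonic bases 22.3% are shared with *Tmem198b* on the opposite strand, which was at 7.1 to 11 FPKM in these libraries. *Mmp11* and *Mmp15* were not called. *Mmp11* had 70.1, 89.3 and 44.8 FPKM in distal and 87.6, 51.2 and 48.1 FPKM in proximal fibroblasts, a log2 difference of -0.74. *Mmp15* had 3.55, 1.60 and 0.944 FPKM in distal and 3.09, 0.919 and 1.59 FPKM in proximal fibroblasts, a difference of -0.94.

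Of the 7 proteoglycanases, 4 rose. *Adamts1* had 13.3, 46.3 and 174 FPKM in distal and 32.4, 94.5 and 141 FPKM in proximal fibroblasts at the 3 stages, and rose by 2.85 (SE 0.40, adjusted p = 0.00965). *Adamts4*, an aggrecanase, had 1.07, 7.60 and 24.5 FPKM in distal and 1.25, 11.4 and 22.6 FPKM in proximal fibroblasts. It rose by 3.50 (SE 0.21, adjusted p = 0.00339), while *Adamts5*, the related aggrecanase, rose by 1.56 and *Adamts9* by 1.15. The calls of *Adamts5* and *Adamts9* were not kept when any single library was left out. *Adamts8*, *Adamts15* and *Adamts20* were not called, with differences of 0.37, -0.36 and -0.42.

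Of the procollagen N-proteinases, *Adamts2* had 7.10, 35.0 and 63.4 FPKM in distal and 9.74, 38.5 and 58.8 FPKM in proximal fibroblasts, and rose by 2.73 (SE 0.17, adjusted p = 0.00342). Most of that rise fell between E13.5 and E15.5, with a log2 difference of 2.01 for that step and 0.72 for the next. *Adamts14* had 0.425, 1.42 and 5.90 FPKM in distal and 0.606, 4.70 and 9.83 FPKM in proximal fibroblasts and rose by 2.51, with the proximal library above the distal one at each stage. *Adamts3* had 7.57, 8.04 and 9.60 FPKM in distal and 10.2, 11.47 and 7.38 FPKM in proximal fibroblasts and a difference of -0.05 that was not called.

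Of the 4 tested ADAMTS-like genes, 2 rose. *Adamtsl4*, mutated in human lens dislocation, had 0.766, 3.59 and 33.0 FPKM in distal and 1.37, 5.58 and 63.6 FPKM in proximal fibroblasts at the 3 stages, and rose by 4.52 (SE 0.19, adjusted p = 0.00236), the largest difference of any member. *Adamtsl5* had 2.62, 10.5 and 40.8 FPKM in distal and 6.26, 39.4 and 40.7 FPKM in proximal fibroblasts, and rose by 3.03 (SE 0.44, adjusted p = 0.0103). The proximal library was already high at E15.5, when the distal one was not. *Adamts17*, *Adamts19* and *Adamts10* were higher at E17.5 than at E13.5 by 1.52, 2.1 and 0.49, and *Adamts12* by 1.30. *Adamts17* was highest at E15.5 in both regions, with means of 5.76, 19.4 and 15.9 FPKM at the 3 stages. The calls of *Adamts17*, *Adamts10* and *Adamts12* were not kept when any single library was left out.

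Of the 3 tested inhibitors only *Timp2* was called. It had 44.6, 71.2 and 130.2 FPKM in distal and 56.9, 92.9 and 179 FPKM in proximal fibroblasts at the 3 stages, and rose by 1.58 (SE 0.10, adjusted p = 0.00364). *Timp1* had 17.98, 18.3 and 22.8 FPKM in distal and 26.8, 34.7 and 31.5 FPKM in proximal fibroblasts, a difference of 0.28. *Timp3* had 46.6, 23.8 and 36.1 FPKM in distal and 49.9, 35.8 and 38.6 FPKM in proximal fibroblasts, a difference of -0.36. Neither passed the test on FPKM, and *Timp1* passed on TPM, at 0.64 with an adjusted p of 0.0458.

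**Figure D5:**
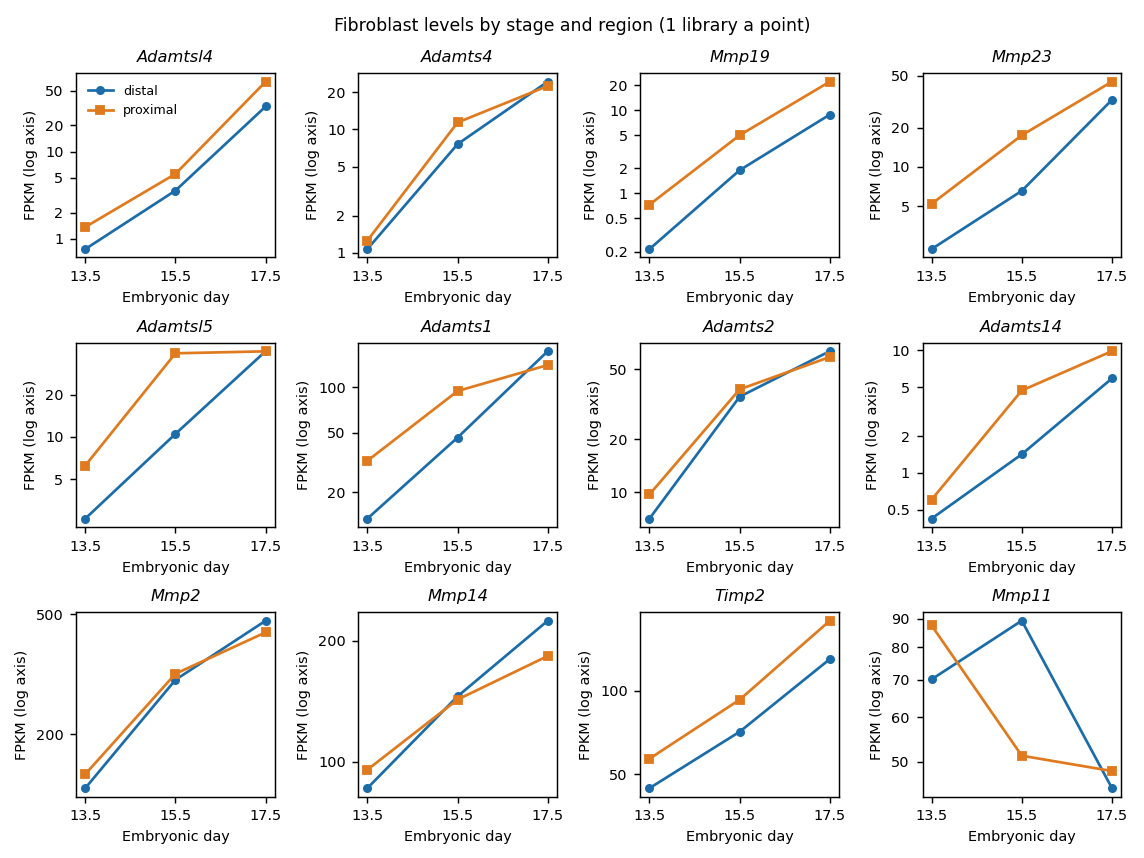
FPKM on a log axis of 12 members in distal and proximal fibroblasts at the 3 stages, with 1 point a library. *Mmp2*, *Mmp14*, *Timp2*, *Adamts2*, *Adamts4* and *Adamtsl4* climb with stage in both regions, and *Mmp11* does not, at 70.1, 89.3 and 44.8 FPKM in distal and 87.6, 51.2 and 48.1 FPKM in proximal fibroblasts.

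Other transcripts moved with stage in the same libraries. The 8 fibroblast markers summed to 4484, 11003 and 23685 FPKM in distal and 5520, 16013 and 32231 FPKM in proximal fibroblasts at the 3 stages. Of the 8, 6 were called higher at E17.5 than at E13.5 and 2 were not called. The largest part was *Col3a1*, with 2842, 6641 and 13316 FPKM in distal and 3512, 9217 and 17247 FPKM in proximal fibroblasts. The sort marker *Pdgfra* had 217, 152 and 215 FPKM in distal and 166, 139 and 160 FPKM in proximal fibroblasts. *Pdgfrb* was lower at E17.5 than at E13.5 in both regions, with higher values at E15.5. The 5 smooth muscle markers summed to 750.2, 461 and 872 FPKM in distal and 1013, 836 and 1473 FPKM in proximal fibroblasts. Red cell markers summed to 0.283, 11.9 and 0.229 FPKM in distal and 12.9, 4.46 and 0.163 FPKM in proximal fibroblasts. Of the 5 endothelial markers, *Tek* had 12.8 and 6.94 FPKM in the distal and proximal libraries of E17.5 and at most 1.92 FPKM before, whereas *Pecam1* and *Kdr* were at or below 0.322 FPKM and *Cdh5* and *Emcn* at 0 at E17.5. The part of any of these in the members' rise was not tested.

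Between distal and proximal fibroblasts no member passed, and neither did any of the 12900 genes, with a smallest adjusted p of 0.190 in limma and 0% called, and none of the members passed under any alternative tried. At an unadjusted p under 0.05 there were 1 higher and 7 lower members in distal fibroblasts, against 9.98% of all genes in either direction. The 7 were *Timp1*, *Timp2*, *Mmp19*, *Mmp23*, *Adamts5*, *Adamtsl4* and *Adamtsl5*, and the higher one was *Adamts7*. There were 10 of the 31 members (32.3%) that were lower in distal fibroblasts at all 3 stages, against 16.3% of all genes, and 3 (9.68%) were higher at all 3 stages, against 16.7%. The median log2 difference was -0.17 for members and 0.00 for all genes.

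*Timp2* had 44.6, 71.2 and 130.2 FPKM in distal fibroblasts at the 3 stages, against 56.9, 92.9 and 179 FPKM in proximal fibroblasts. Distal fibroblasts were lower at every stage, with a difference of -0.39 (SE 0.08, adjusted p = 0.360). *Timp1* had a difference of -0.63 and *Timp3* of -0.26, also lower in distal fibroblasts at every stage. *Adamts5* had 1.33, 3.57 and 4.07 FPKM in distal and 2.27, 13.9 and 12.0 FPKM in proximal fibroblasts, a difference of -1.18 (SE 0.27, adjusted p = 0.380). *Adamts7* had 20.4, 32.9 and 28.3 FPKM in distal and 14.0, 28.2 and 15.4 FPKM in proximal fibroblasts, higher in distal fibroblasts at every stage by 0.52 (SE 0.15, adjusted p = 0.402). *Mmp2* and *Mmp14* differed by -0.03 and 0.06.

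Related genes of matrix turnover were read from lists that do not contain the members. In E13.5 fibroblasts over epithelium, 4 of 9 tested ADAM genes were higher and 2 lower, all 3 tested plasminogen activation genes were higher, and 5 of 8 other metalloproteinase inhibitors and inducers were higher and 1 lower, where 30.5% of all genes were higher and 23.3% lower. *Pcolce*, which enhances procollagen C-terminal cleavage, was higher by 4.36, *Adam19* by 4.20, *Plat*, the tissue plasminogen activator, by 3.66 and *Reck*, a membrane-bound MMP inhibitor, by 2.74, while *Adam28* was lower at -2.99. *Adam19* and *Plat* averaged less than 1 FPKM in the epithelium, so they were tested only because of their fibroblast level and had to be higher there. *Adam28*, at 0 in both fibroblast libraries, was tested only because of its epithelial level. The counts include such genes. In Gata4hi over Sox2hi cells of E13.5, *Spock1* and *Spock3*, matrix proteoglycans of the testican family, were higher by 4.66 and 2.44, while *Sparc*, which encodes a collagen-binding matrix protein, was lower at -2.98, with 9.06, 8.93 and 10.5 FPKM in Gata4hi cells against 82.5, 84.2 and 78.3 FPKM in Sox2hi cells. *Spock1* and *Spock3* averaged less than 1 FPKM over the Sox2hi and Sox2midGata4mid libraries. They were tested only because of their Gata4hi level and had to be higher there. *Vcan*, which encodes the ADAMTS substrate versican, was higher by 1.53, and *Fbn2*, fibrillin-2, was lower at -3.08. In all, 2 of 7 ADAM genes, 3 of 8 inhibitors and inducers and 2 of 5 substrates were higher in Gata4hi cells and 1, 1 and 2 were lower, where 14.9% of all genes were higher and 6.7% lower. With the replicate block these counts were 3, 2 and 2 higher and 1, 2 and 1 lower, as *Adam11* and *Pcolce* were gained and *Spock2* and *Hspg2* lost.

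In fibroblasts of E17.5 over E13.5, 4 of 6 tested substrates and fibrillins were higher and none lower, and 2 of 4 proprotein convertases, the enzymes that activate many MMPs and ADAMTS proteases, were higher, where 9.96% of all genes were higher and 27.1% lower. *Fbn1*, fibrillin-1, was higher by 2.40, *Pcolce* by 2.28, *Bmp1*, a procollagen C-proteinase, by 1.12 and *Furin* by 0.84. *Plat* was lower at -1.09 and *Spock3* at -2.47. *Spock3* averaged less than 1 FPKM over the E15.5 and E17.5 libraries, so it was tested only because of its E13.5 level. In the epithelium of E13.5 over E11.5, *Bmp1* was lower at -0.74, *Plat* at -1.23 and *Spock3* at -1.66, and *Adam28* was higher by 1.77. *Plat* averaged less than 1 FPKM in the E13.5 libraries compared and was tested only because of its E11.5 level.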

How the data were processed

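Sorted epithelium and fibroblasts of embryonic mouse stomach were profiled by stranded polyA RNA-seq with 75-base single reads in 16 libraries. The data are the FPKM of every gene as the authors deposited them. The submitters' processing notes list Cufflinks 2.2.1, HISAT2 2.1.0, cutadapt 1.16 and the build mm10, while the strand setting, any filter and the normalization mode are not given in the sources used here. The file holds no counts, so the total depth is unknown and no counting interval is given. The table had 53772 rows, 61 of which repeated a gene identifier and were dropped for the row with the highest mean.

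The members and the gene lists were chosen with earlier results of these data known. Groups came from the labels. Values were tested on the scale of log2(FPKM + 1) by limma 3.58.1 (R 4.3.3) with a variance trend, for genes that averaged 1 FPKM or more in the libraries of the fit, so that a fold change understates that of low genes. P-values were adjusted by Benjamini-Hochberg over all genes of a comparison and called under 0.05, and the whole table was fitted. The 3 epithelial populations of E13.5 shared 1 fit. The stage effect in the epithelium was fitted over Gata4hi and Sox2hi cells with population as a term. Fibroblasts of E13.5 were set against the mean of the epithelial groups, and the 6 fibroblast libraries were fitted with region and stage. No test of single genes is given in the study's RNA-seq methods. Members named are those called, the highest 8 of each compartment, those listed at 0 throughout and, of each related list, up to 3 called genes, of which 1 is not reported here. Other genes were named after their values were seen where they overlap a member, and members that were not called were given to complete a role. The test was checked on simulated data. Alternatives were another pseudocount (0.1), minimum level (none or 5 FPKM), scale (TPM or quantile normalization), variance model, set of libraries and a replicate block. A test of the difference between stages was added after seeing the data.

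Same-numbered Gata4hi and Sox2hi libraries deviated together from their group means, with correlations of 0.113, 0.119 and 0.163 across genes. These are small, and centring on group means itself pushes unlike numbers apart, so they do not establish that the numbers pair the libraries. No stated design gives a pairing, and the number was used as a block only as an alternative. With Sox2midGata4mid cells there are 2 same-numbered pairs for each comparison. Replicate 3 of Gata4hi and Sox2hi cells is labelled in the style of the E11.5 and fibroblast libraries, and whether this marks a batch is not given in the sources used here.

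Of the members, 48 had the same coordinates in GENCODE M21, 22 overlap a gene on the other strand and 4 one on the same strand. Tables and figures used data.table (version 1.17.8), Python 3.11.15, pandas 2.3.3, numpy 2.4.6 and matplotlib 3.10.9.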

Additional observations from a re-analysis of the deposited data

How the results depend on the processing

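Of the 45 results for single members, 553 of 694 values under alternatives kept their direction and their call, 141 kept the direction but lost the call, and none reversed. Only 8 of the 45 kept their call under every alternative tried. Among these, *Adamts2*, *Adamts3*, *Adamts8* and *Adamts12* in fibroblasts over epithelium were tested only because of their fibroblast level and had to be higher there. *Adamtsl5* in Gata4hi over Sox2hi cells was tested only because of its Sox2hi level. None of these genes was tested at a minimum of 5 FPKM. In Gata4hi over Sox2hi cells the number of members called was 1 at a minimum of 5 FPKM, 5 without a variance trend and 1 to 4 with a library left out. In Sox2midGata4mid over Sox2hi cells it was 0 at a minimum of 5 FPKM, 2 without a variance trend, 0 with only the groups compared and 0 to 1 with a library left out. In Sox2midGata4mid over Gata4hi cells it was 2 with a pseudocount of 0.1, 0 with no filter, 0 after quantile normalization, 0 without a variance trend and 0 to 1 with a library left out. For the epithelium of E13.5 over E11.5 it was 0 with only replicate 3 of E13.5 and 2 to 5 with a library left out. For fibroblasts over epithelium it was 9 at a minimum of 5 FPKM, 7 with only replicate 3 of the epithelium, where fewer libraries enter, and 18 to 21 with a library left out. For fibroblasts of E17.5 over E13.5 it was 0 to 11 with a library left out, where 1 residual degree of freedom remains. For E11.5 Gata4hi over Sox2hi cells 4 members differed by 2-fold with a pseudocount of 0.1 and 3 on TPM. Where an arm was left with 1 library, it was assumed to vary like the other groups. A higher minimum also leaves fewer members to test. These counts are given without the members tested or the share of all genes called under each setting. They therefore do not set the members apart from other genes.

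With the replicate block 4 members were called in Gata4hi over Sox2hi cells, *Adamts1* being added, and 1 in each comparison with Sox2midGata4mid cells. The block changed no other call of a member. Among the related genes it added *Adam11* and *Pcolce* and lost *Spock2* and *Hspg2* in Gata4hi over Sox2hi cells, and lost *Spock1* and *Pcsk5* in Sox2midGata4mid over Sox2hi and *Ltbp1* in Sox2midGata4mid over Gata4hi cells.

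TPM shifted the median log2 difference of all genes by -0.15, 0.13 and 0.28 in Gata4hi over Sox2hi, Sox2midGata4mid over Sox2hi and Sox2midGata4mid over Gata4hi cells, by 0.12 between the epithelial stages, by -0.37 in fibroblasts over epithelium, by 0.04 between fibroblast regions and by 0.35 between fibroblast stages. Quantile normalization shifted it by -0.11, 0.03, 0.14, 0.05, -0.12, -0.01 and 0.23 in the same order. No called member changed sign on either scale. The cause of these changes was not tested.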
